A study of Mus musculus with 18 samples.

Results

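Mitosis and G2/M genes were followed across the rostral, middle and caudal embryonic mouse neocortex. The set holds 42 genes with roles in entry into and passage through mitosis, and its members were the probes whose gene symbol in the platform annotation is on that list, with 1 probe per gene, the one with values on most arrays. Of the 42 genes, 40 had a probe and all 40 could be tested, 38 of them with values on all 18 arrays. Cdc25b was measured on 16 arrays and Ndc80 on 17. No probe carried the symbol of Ccnb1 or Cdc20, so neither is described. The 40 members were read within a test of 18525 features, which cover 13379 genes.

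Total RNA came from neocortex of MF1 embryos at E13.5, divided along the rostrocaudal axis, with 3 pools each of rostral (R1, R2 and R3), middle (M1, M2 and M3) and caudal tissue (C1, C2 and C3). The labels give no treatment, mutation or transgene. Each pool was hybridised on 4 arrays of 2 colours, 2 in each dye, against pools of the other regions, so 6 arrays joined each pair of regions. The labels name 4 embryos for all 9 pools and do not tell whether a region's 3 pools are biological replicates, so p-values here reflect only pool-to-pool spread, possibly technical.

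Values are log2 ratios. From them 1 value per pool and gene was fitted, with a mean of 0 over the 9 pools, and a difference between regions is the difference of the means of 3 and 3 pools, given ± its standard error. No label states which dye is the numerator. The Cy5 signal was taken as the numerator, which is likely: Nr2f1, a transcription factor known for its high caudal level, was then lower rostrally by a difference of -1.02 ± 0.07 (limma, adjusted p = 0.0138), and Etv1, known for its rostral level, was higher by 0.80 ± 0.07 (limma, adjusted p = 0.0272). Ratios hold no level, so markers could not be checked for presence, levels of different genes were not compared, and in these bulk samples fewer cycling cells and less RNA per cycling cell cannot be told apart. Arrays held 18315 to 20924 values with medians between -0.09 and 0.61, and the number of arrays limits the precision.

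At this age the cortical wall holds dividing radial glia next to the ventricle, intermediate progenitors further out, and young neurons that have left the cycle. A cell builds up transcripts for mitosis late in its cycle, when cyclins and CDK1 drive entry, Aurora and Polo-like kinases build the spindle, kinetochores attach chromosomes to it, and the spindle checkpoint holds the anaphase-promoting complex until all are attached. Transcripts of these genes are therefore known as marks of dividing cells, and many of their promoters are known to carry a CHR element, bound by the DREAM and MuvB complexes, together with CCAAT boxes, bound by NF-Y.

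The promoters of the members were searched for these motifs, because shared letters are a property that the choice of members did not use. RefSeq promoters (build GRCm38.p6, 250 bases before to 50 bases after the start) matched 36 of the 42 genes by symbol, 34 of them measured. The CHR was searched as TTTGAA or TTCGAA and the NF-Y motif as CCAAT, on both strands and with overlaps allowed, and a gene counted where any of its windows held the motif. A CHR stood in 27 of 36 members (75.0%), against 21.7% of the 27025 genes in the table and 20.2% of its 17492 protein-coding genes. CCAAT stood in 28 (77.8%), against 41.1% and 42.3%. Both motifs stood in 24 (66.7%), against 8.61% and 8.22%, and 20 members (55.6%) held at least 2 CCAAT boxes, against 13.3% and 14.6%. These matches are descriptions of letters in the windows, and no factor was measured.

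**Figure D1:**
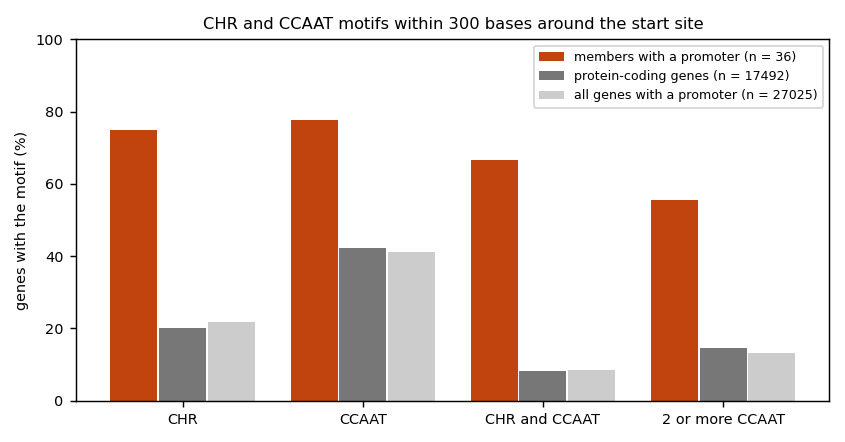
Share of genes (y axis, percent) whose 300-base promoter window holds a CHR, a CCAAT box, both, or 2 or more CCAAT boxes, for the 36 members with a promoter, 17492 protein-coding genes and all 27025 genes. Bars for the members are the tallest for each motif, with both motifs in 66.7% of members and 8.22% of protein-coding genes.

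The sequences below are the 250 bases before the start of 6 members, read on the gene's strand and 5′ to 3′. They are those with the lowest p in the F test over the 3 regions among members whose bases before the start hold both motifs. That all 6 hold both motifs therefore follows from the choice. Prc1 had more than 1 window, and the one shown was taken because both motifs lie before its start. In another Prc1 window the CHR began at -5 and ran across the start. Capitals mark CHR and CCAAT motifs on either strand, so TTCAAA and ATTGG are the reverse forms. The regions are chr8:57511593-57511842 (+) for Hmgb2, chr2:118597961-118598210 (+) for Bub1b, chr7:80294226-80294475 (+) for Prc1, chr2:164769679-164769928 (+) for Ube2c, chr19:37376132-37376381 (+) for Kif11 and chr11:99024190-99024439 (-) for Top2a.
Hmgb2: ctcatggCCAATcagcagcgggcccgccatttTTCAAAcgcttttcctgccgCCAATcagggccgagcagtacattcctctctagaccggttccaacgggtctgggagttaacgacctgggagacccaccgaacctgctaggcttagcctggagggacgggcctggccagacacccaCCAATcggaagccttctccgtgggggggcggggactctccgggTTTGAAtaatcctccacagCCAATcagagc
Bub1b: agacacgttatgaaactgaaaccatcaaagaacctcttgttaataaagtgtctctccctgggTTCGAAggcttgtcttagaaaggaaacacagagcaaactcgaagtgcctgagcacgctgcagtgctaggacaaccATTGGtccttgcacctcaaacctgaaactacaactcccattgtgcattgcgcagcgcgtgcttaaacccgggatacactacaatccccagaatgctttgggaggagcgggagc
Prc1: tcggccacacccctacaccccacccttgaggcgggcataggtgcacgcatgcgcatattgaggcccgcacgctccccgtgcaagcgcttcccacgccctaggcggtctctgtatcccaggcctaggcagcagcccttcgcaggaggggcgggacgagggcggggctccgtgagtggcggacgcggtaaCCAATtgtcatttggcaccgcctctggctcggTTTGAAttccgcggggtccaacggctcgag
Ube2c: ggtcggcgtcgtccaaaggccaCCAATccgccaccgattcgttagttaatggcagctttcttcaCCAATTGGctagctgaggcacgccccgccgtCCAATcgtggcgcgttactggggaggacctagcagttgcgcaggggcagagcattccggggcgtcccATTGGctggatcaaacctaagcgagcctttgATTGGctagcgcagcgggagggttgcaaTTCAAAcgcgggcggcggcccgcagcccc
Kif11: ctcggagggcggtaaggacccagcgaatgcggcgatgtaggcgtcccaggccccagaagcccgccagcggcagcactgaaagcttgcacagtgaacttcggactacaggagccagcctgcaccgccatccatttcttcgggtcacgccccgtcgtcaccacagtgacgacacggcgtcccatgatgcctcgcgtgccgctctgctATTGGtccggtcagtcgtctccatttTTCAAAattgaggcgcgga
Top2a: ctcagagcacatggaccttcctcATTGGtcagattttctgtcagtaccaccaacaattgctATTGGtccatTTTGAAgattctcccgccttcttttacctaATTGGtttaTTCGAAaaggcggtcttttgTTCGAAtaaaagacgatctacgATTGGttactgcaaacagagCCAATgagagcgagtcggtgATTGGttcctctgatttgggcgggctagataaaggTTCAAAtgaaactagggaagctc
The Hmgb2 stretch held 2 CHR and 4 CCAAT motifs, Top2a held 4 and 6, and Ube2c held 1 and 6, of which a pair overlapped. Bub1b, Prc1 and Kif11 each held 1 of each. Among these 6, chosen for holding both motifs, rostral minus caudal differences were above 0 (Hmgb2, Bub1b, Prc1), close to 0 (Kif11, Top2a) and below 0 (Ube2c). A link between the motifs and the regional values was not tested.

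In rostral against caudal neocortex most mitosis genes lay above 0 by small amounts. Of the 40 members, 34 had a difference above 0 and 6 below, where 50.4% of all features lay above 0, although without centring of the arrays the split was 25 and 15 and 32.0% of all features lay above 0. The median member difference was 0.11, against 0.00 over all features, and without centring it was 0.04 against -0.07. No member passed at an adjusted p under 0.05 (limma, Benjamini-Hochberg over all features), where 12 features (0.0648%) did, and the lowest adjusted p of a member was 0.156. At an unadjusted p under 0.05, 12 members (30.0%) were higher rostrally, against 4.17% of all features, and 1 (2.5%) was lower, against 3.74%. With the pool M2 left out, which changes the shared spread, 7 members instead of 12 were higher at that p. The count of 1 lower member was 0 without R1, R2, M1, M2, C2 or C3 and 2 without C1. In 13 members every rostral pool lay above every caudal pool, which held for 6.22% of all features, and in 2, Cenpa and Aurkb, every rostral pool lay below, which held for 5.89%.

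The members were measured with less noise than most features, which bears on how many reach a given p. The median residual SD of their arrays was 0.111 log2 units, against 0.256 over all features, and the median SD of their pools within regions was 0.080, against 0.151. The spread ran from 0.050 for Birc5 to 0.867 for Cenpf. Cenpf, Ndc80, Anln, Kif23, Cdc25b, Nek2 and Kif2c were the 7 members noisier than the median feature, and none of them was among the 12. Without centring the rostral minus caudal difference was 0.19 for Spc25, 0.24 for Hmgb2, 0.14 for Bub1b, 0.10 for Kif20a, 0.11 for Nusap1 and 0.02 for Cdk1, and it was -0.18 for Plk1 and -0.14 for Aurkb.

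**Figure D2:**
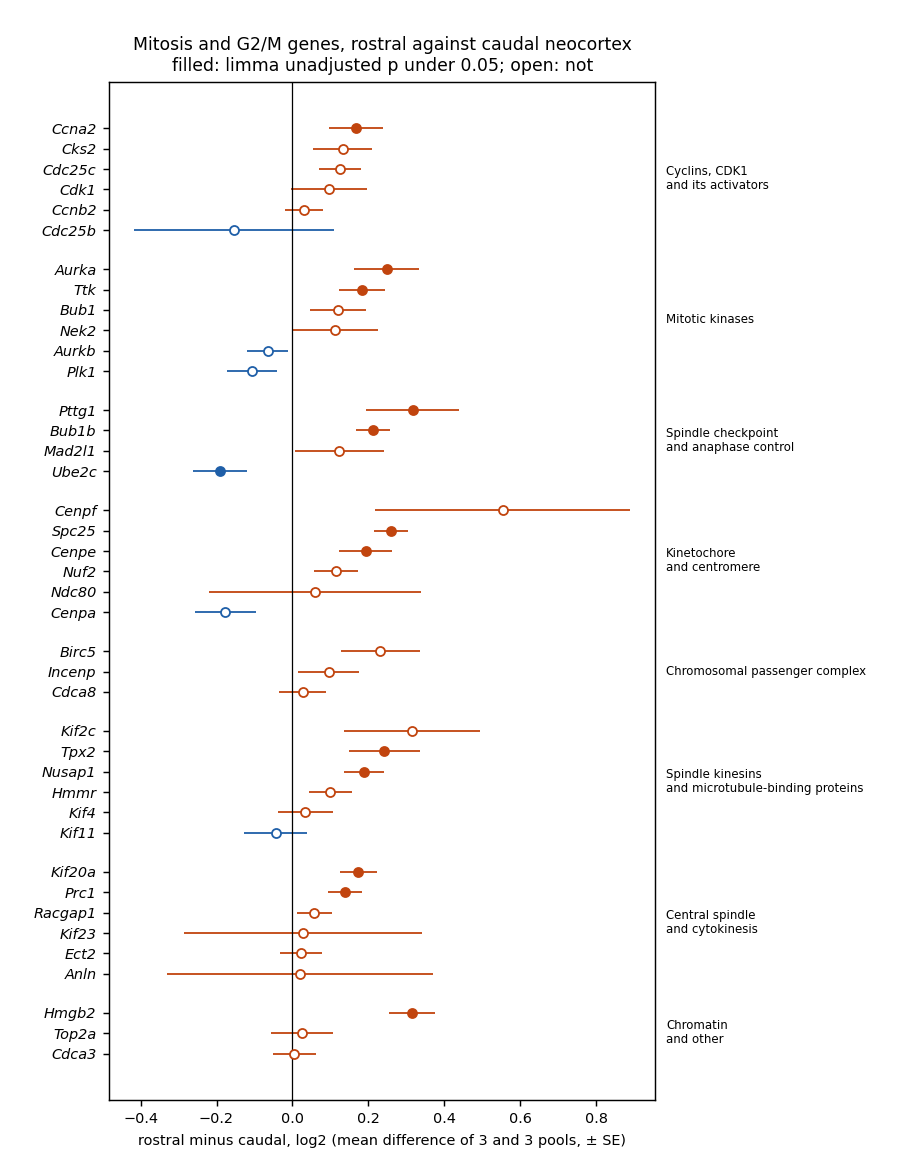
Rostral minus caudal difference (x axis, log2) of each of the 40 measured members, grouped by role, with the mean difference of 3 and 3 pools as points and ± SE as bars, filled where the unadjusted limma p was under 0.05. Points to the right of 0 are 34 of 40 on the centred scale drawn here (25 of 40 without centring), and Ube2c is the filled point on the left.

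Kinetochore and centromere genes, which tie chromosomes to the spindle, held the member with the lowest p in this comparison. Their 6 measured members had a median rostral minus caudal difference of 0.15, with 5 above 0 and 1 below (0.08, with the same split, without centring). Spc25, a subunit of the NDC80 complex that grips microtubule ends, had pool values of 0.06, 0.12 and 0.13 rostrally, 0.07, 0.06 and 0.04 in the middle and -0.16, -0.13 and -0.18 caudally. All 3 caudal pools were below all 6 others, while rostral and middle pools overlapped. Its rostral minus caudal difference was 0.26 ± 0.05, a 1.2-fold difference with a 95% interval of 0.15 to 0.37 (limma, unadjusted p = 0.000593, adjusted p = 0.156), and all 6 arrays that joined rostral and caudal pools lay above 0, at 0.06 to 0.35. Its partners in the complex gave 0.11 ± 0.06 for Nuf2 and 0.06 ± 0.28 for Ndc80, the latter with one of the widest spreads in the set. Cenpe, a kinesin that moves chromosomes to the spindle equator, had a difference of 0.19 ± 0.07 (limma, adjusted p = 0.505).

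The spindle checkpoint and its target were split. Bub1b, which encodes the checkpoint protein BubR1, had pool values of 0.09, 0.10 and 0.07 rostrally, 0.06, 0.07 and -0.00 in the middle and -0.12, -0.11 and -0.15 caudally. The caudal pools again lay below all others. The difference was 0.21 ± 0.04 (limma, unadjusted p = 0.00181, adjusted p = 0.198), with 6 of 6 arrays above 0. Pttg1, or securin, which restrains the enzyme that separates sister chromatids, gave 0.32 ± 0.12 (limma, adjusted p = 0.562), and Mad2l1, a checkpoint inhibitor of the anaphase-promoting complex, 0.12 ± 0.12. Ube2c, the ubiquitin-conjugating enzyme of that complex, went the other way at -0.19 ± 0.07 (limma, unadjusted p = 0.0292, adjusted p = 0.522).

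Among chromatin genes Hmgb2, an HMG-box protein abundant in dividing cells, had pool values of -0.02, 0.14 and 0.14 rostrally, 0.09, 0.20 and 0.16 in the middle and -0.25, -0.21 and -0.24 caudally. The 3 caudal pools were the lowest, R1 was the lowest of the other 6, and rostral and middle pools overlapped. The rostral minus caudal difference was 0.31 ± 0.06, a 1.24-fold difference (limma, unadjusted p = 0.00123, adjusted p = 0.176), and the 6 direct arrays gave 0.21 to 0.43. Top2a, the topoisomerase that untangles chromosomes before anaphase, had pool values of -0.03, -0.15 and 0.13 rostrally, 0.14, 0.03 and 0.01 in the middle and 0.02, -0.09 and -0.05 caudally. Its regions overlapped, and its difference of 0.03 ± 0.08 (95% interval -0.17 to 0.22) took the other sign on the second Top2a probe, -0.09 ± 0.09, and without centring, -0.05. Without the pool R3 the Top2a difference was -0.05. Cdca3, which promotes entry into mitosis, had a difference of 0.00 ± 0.06.

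Genes of the central spindle and of cytokinesis, the division of the cell body, all lay above 0 on the centred scale, with a median of 0.04 over 6 members, but the median was -0.03 without centring. Kif20a, the kinesin that carries the passenger complex to the central spindle, had pool values of 0.14, 0.08 and 0.06 rostrally, -0.01, 0.01 and -0.04 in the middle and -0.13, -0.06 and -0.05 caudally. Its regions did not overlap and followed the order rostral, middle, caudal, with a rostral minus caudal difference of 0.17 ± 0.05 (limma, unadjusted p = 0.00842, adjusted p = 0.344). Prc1, which bundles microtubules between the separating chromosomes, had pool values of 0.12, 0.07 and 0.11 rostrally, -0.08, -0.05 and -0.05 in the middle and -0.07, -0.05 and -0.00 caudally. Only the rostral pools of Prc1 were above 0, and middle and caudal pools overlapped. Its rostral minus caudal difference was 0.14 ± 0.04 (limma, unadjusted p = 0.0152, adjusted p = 0.423). The centralspindlin subunit Racgap1 gave 0.06 ± 0.05 and its partner Kif23 0.03 ± 0.31, while Ect2, the exchange factor that activates RhoA at the cleavage site, gave 0.02 ± 0.05 and the scaffold Anln 0.02 ± 0.35, so the last 3 were within their errors.

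Spindle kinesins and microtubule-binding proteins had a median difference of 0.14, with 5 of 6 above 0 (0.07, with 4 of 6 above 0, without centring). Nusap1, which stabilises spindle microtubules near chromosomes, had pool values of 0.12, 0.06 and 0.14 rostrally, -0.06, -0.03 and 0.01 in the middle and -0.10, -0.13 and -0.01 caudally. Its rostral pools stood above the other 6, which overlapped, and the rostral minus caudal difference was 0.19 ± 0.05 (limma, unadjusted p = 0.00929, adjusted p = 0.357). Tpx2, the activator of Aurora A on the spindle, had a difference of 0.24 ± 0.09 (limma, adjusted p = 0.566). Kif2c, which depolymerises microtubules, gave 0.31 ± 0.18, Hmmr 0.10 ± 0.06, the chromokinesin Kif4 0.03 ± 0.07 and Kif11, the motor that pushes spindle poles apart, -0.04 ± 0.08.

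Mitotic kinases lay on both sides of 0, with 4 of 6 above it and a median difference of 0.12 (4 of 6 and 0.04 without centring). Aurka, the Aurora kinase of centrosomes, had a rostral minus caudal difference of 0.25 ± 0.09 (limma, adjusted p = 0.474) and Ttk, the checkpoint kinase MPS1, 0.18 ± 0.06 (limma, adjusted p = 0.444). Bub1 gave 0.12 ± 0.07 and Nek2, a kinase of centrosome separation, 0.11 ± 0.11. Plk1, the Polo-like kinase, had pool values of -0.15, -0.09 and 0.00 rostrally, 0.06, 0.02 and 0.06 in the middle and -0.02, -0.04 and 0.14 caudally. Rostral and caudal Plk1 pools overlapped, with a difference of -0.11 ± 0.07 (95% interval -0.26 to 0.05), and the second Plk1 probe gave -0.03 ± 0.13. Aurkb, the kinase of the chromosomal passenger complex, had pool values of -0.06, -0.02 and -0.03 rostrally, -0.03, -0.00 and 0.06 in the middle and 0.11, -0.02 and -0.00 caudally. Its rostral pools lay below its caudal pools by a narrow gap, and 2 of the 6 direct arrays were above 0. The difference of -0.07 ± 0.05 had a 95% interval of -0.19 to 0.06.

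The other 3 subunits of the passenger complex, which corrects faulty attachments, had differences above 0 on the centred scale (2 of 3 without centring): 0.23 ± 0.10 for Birc5 (survivin), 0.09 ± 0.08 for Incenp and 0.03 ± 0.06 for Cdca8 (borealin). None of them had an unadjusted p under 0.05.

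Of the cyclins, CDK1 and its activators, 6 of 7 genes were measured and 5 lay above 0, with a median difference of 0.11 (4 and 0.04 without centring). Cdk1, the kinase that drives entry into mitosis, had pool values of 0.08, 0.07 and -0.07 rostrally, -0.02, 0.04 and 0.10 in the middle and -0.29, 0.04 and 0.05 caudally. The pool C1 stood below all others and the regions overlapped. The Cdk1 difference was 0.10 ± 0.10 (95% interval -0.14 to 0.33, limma, adjusted p = 0.916), and it was -0.02 without C1. Ccna2, or cyclin A2, gave 0.17 ± 0.07 (limma, adjusted p = 0.627), Cks2, a small subunit of the kinase, 0.13 ± 0.08, and Ccnb2, or cyclin B2, 0.03 ± 0.05. The phosphatases that activate CDK1 differed in sign at 0.12 ± 0.06 for Cdc25c and -0.15 ± 0.26 for Cdc25b.

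**Figure D3:**
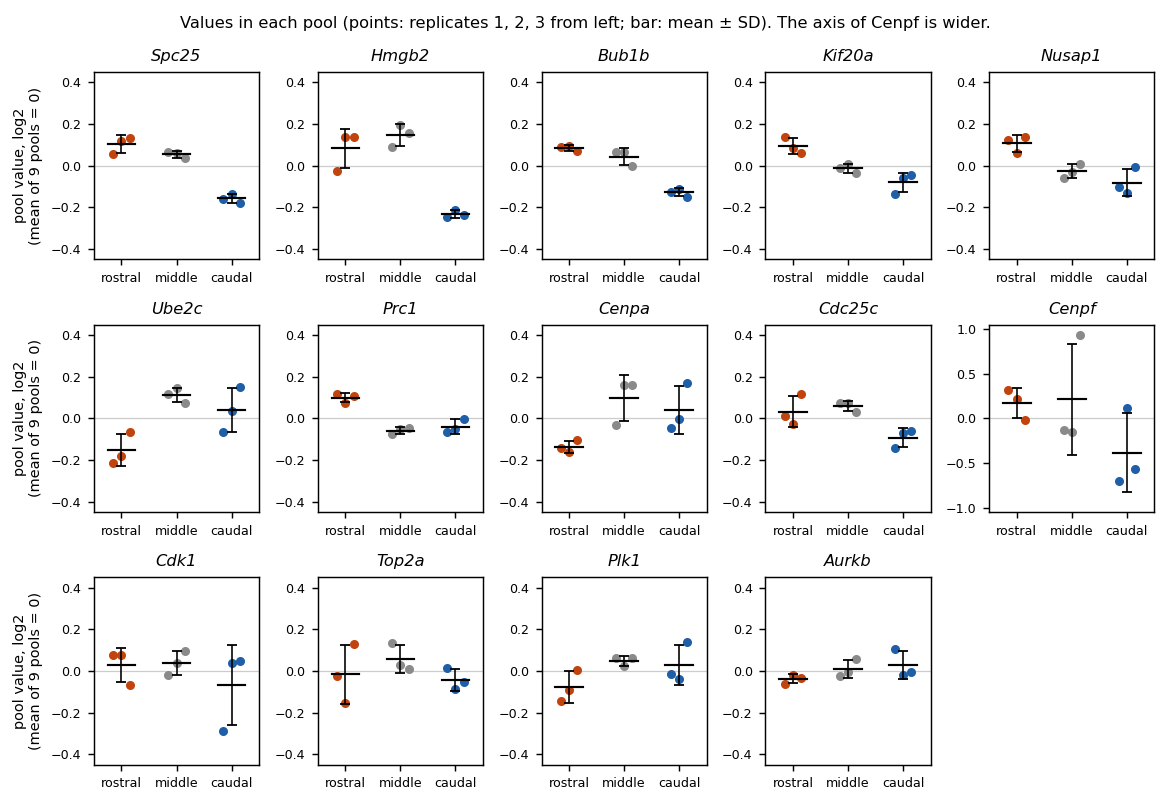
Value in each of the 9 pools (y axis, log2, mean of the 9 pools at 0) of the 14 members described pool by pool, with points for replicates 1 to 3 of each region and bars for mean ± SD. The caudal points of Spc25, Hmgb2 and Bub1b lie below all their other points, the rostral points of Ube2c and Cenpa lie below all their middle points, and the axis of Cenpf is wider.

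Between middle and caudal neocortex the members again lay mostly above 0 on the centred scale, with 36 above, 4 below and a median of 0.07 (50.7% of all features lay above 0), but without centring 5 lay above and 35 below, with a median of -0.10 against -0.17 over all features. No member and no feature (0%) passed at an adjusted p under 0.05 (limma), and the lowest adjusted p of a member was 0.394. At an unadjusted p under 0.05, 4 members (Hmgb2, Spc25, Bub1b and Cdc25c, 10%) were higher in the middle, against 3.08% of all features, and 0 were lower, against 1.78%. The count of 4 was 2 without the pool M2. The median was 0.04 without C1 and 0.12 without C3. Pools did not overlap in 7 members with the middle above, against 6.18% of features, and in 0 with the middle below, against 4.38%.

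Hmgb2 had the largest of these differences among the 4, 0.38 ± 0.06 or 1.30-fold (limma, unadjusted p = 0.000407, adjusted p = 0.394), and its 6 direct arrays gave 0.25 to 0.46. Spc25 differed by 0.21 ± 0.05 (limma, adjusted p = 0.424) and Bub1b by 0.17 ± 0.04 (limma, adjusted p = 0.578), and without centring the 3 differences were 0.20 for Hmgb2, 0.04 for Spc25 and -0.00 for Bub1b. Cdc25c, whose product removes the inhibitory phosphates of CDK1, had pool values of 0.01, -0.03 and 0.11 rostrally, 0.07, 0.07 and 0.03 in the middle and -0.14, -0.07 and -0.06 caudally. Its caudal pools were below the other 6, and the middle minus caudal difference was 0.15 ± 0.06 (limma, unadjusted p = 0.0279, adjusted p = 0.933), or -0.02 without centring.

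Cenpf, a large kinetochore protein that builds up in G2, had the largest residual SD between arrays among the members. Its pool values were 0.31, 0.22 and -0.02 rostrally, -0.13, -0.16 and 0.93 in the middle and -0.71, 0.12 and -0.57 caudally, so its regions overlapped. The middle minus caudal difference of 0.60 ± 0.34 (limma, adjusted p = 0.995) was 0.20 without array 6, which joined M3 and C1, and 0.14 without the pool M3.

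Between rostral and middle neocortex the members were on both sides, 23 above 0 and 17 below with a median of 0.03 (50.7% of all features lay above 0), while without centring 34 lay above and 6 below, with a median of 0.13 against 0.10 over all features. No member and no feature (0%) passed at an adjusted p under 0.05 (limma), and the lowest adjusted p of a member was 0.701. At an unadjusted p under 0.05, 2 members (Prc1 and Nusap1, 5%) were higher rostrally, against 2.16% of features, and 2 (Ube2c and Cenpa, 5%) were lower, against 3.09%. Pools did not overlap in 7 members with the rostral side above (5.17% of features) and in 4 with it below (7.66%). Both counts of 2 varied with the pool left out, which also changes the shared spread. The higher count was 1 without M2, M3, C1 or C2, although C1 and C2 are caudal. The lower count was 1 without R1, R3, M2 or M3.

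Ube2c had pool values of -0.21, -0.18 and -0.06 rostrally, 0.12, 0.14 and 0.07 in the middle and -0.06, 0.04 and 0.15 caudally. Rostral pools lay below all middle pools and overlapped with the caudal ones at a single value. The rostral minus middle difference was -0.26 ± 0.07, a 1.2-fold difference (limma, unadjusted p = 0.00698, adjusted p = 0.701), and all 6 direct arrays lay below 0, at -0.39 to -0.15. Cenpa, the histone H3 variant that marks centromeres, had pool values of -0.14, -0.16 and -0.10 rostrally, -0.03, 0.16 and 0.16 in the middle and -0.04, -0.01 and 0.17 caudally. The rostral pools of Cenpa were the lowest 3 of the 9, with a rostral minus middle difference of -0.23 ± 0.08 (limma, unadjusted p = 0.0208, adjusted p = 0.889). On the other side, Prc1 gave 0.16 ± 0.04 (limma, adjusted p = 0.731), Nusap1 0.13 ± 0.05 (limma, adjusted p = 0.935) and Kif20a 0.11 ± 0.05 (limma, adjusted p = 0.951), each with 6 of 6 arrays above 0. Without centring the rostral minus middle difference was -0.16 for Ube2c and -0.13 for Cenpa, and 0.26 for Prc1, 0.23 for Nusap1 and 0.21 for Kif20a.

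An F test over the 3 regions gave no member at an adjusted p under 0.05 (limma), where 2 features (0.0108%) passed, and the lowest adjusted p of a member was 0.273. At an unadjusted p under 0.05 it gave 9 members (22.5%), against 6.71% of features: Hmgb2, Spc25, Bub1b, Prc1, Ube2c, Nusap1, Kif20a, Ttk and Cenpa. A share above that of all features was not particular to the members. Among lists described below it was 15.6% for further mitosis genes, 28.0% for DNA replication and 28.6% for meninges and mesenchyme. It was 37.5% for radial glia, 46.2% for intermediate progenitors and 31.6% for cortical neurons. In 21 of 40 members the mean of the middle pools stood between the rostral and caudal means, against 36.8% of features.

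Across single pools the median of the 40 members was 0.05, 0.07 and 0.05 in R1, R2 and R3, -0.01, 0.02 and 0.03 in M1, M2 and M3, and -0.09, -0.06 and -0.01 in C1, C2 and C3. C1 was the lowest of the 9 pools in 15 of 40 members, against 11.8% of all features, C2 in 8 (12.4% of features), R1 in 6 (12.7%) and C3 in 5 (13.6%). Aurka, Tpx2 and Pttg1, counted above as higher rostrally than caudally, had C1 at -0.30, -0.30 and -0.34. Their C2 and C3 lay between -0.06 and 0.01, and R3 of Pttg1 was at -0.08. The caudal pools of Spc25, Hmgb2 and Bub1b, also counted there, lay close together. Across the 9 pools the correlation of a member with the median of the other members had a median r of 0.60, and 31 of 40 were above 0, where all features had a median r of -0.01 and 49.4% above 0. Against the median of the members, the further mitosis genes described below had a median r of 0.43, with 77.1% above 0. DNA replication genes had 0.42, with 76.0% above 0, so this was not particular to the members. These are descriptions over pools that share arrays and the same centring, and they include the regional differences. Nuf2 (0.88), Kif20a (0.86) and Nusap1 (0.84) followed the others most closely. Aurkb (-0.58), Ube2c (-0.36), Anln (-0.31), Plk1 (-0.27), Cdc25b (-0.25), Cenpa (-0.23), Kif23 (-0.18), Kif4 (-0.17) and Top2a (-0.12) had values of r below 0. Of these 9, Anln, Cdc25b and Kif23 are among the noisy members, while Aurkb, Ube2c, Plk1, Cenpa, Kif4 and Top2a had a residual SD below that of the median feature.

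**Figure D4:**
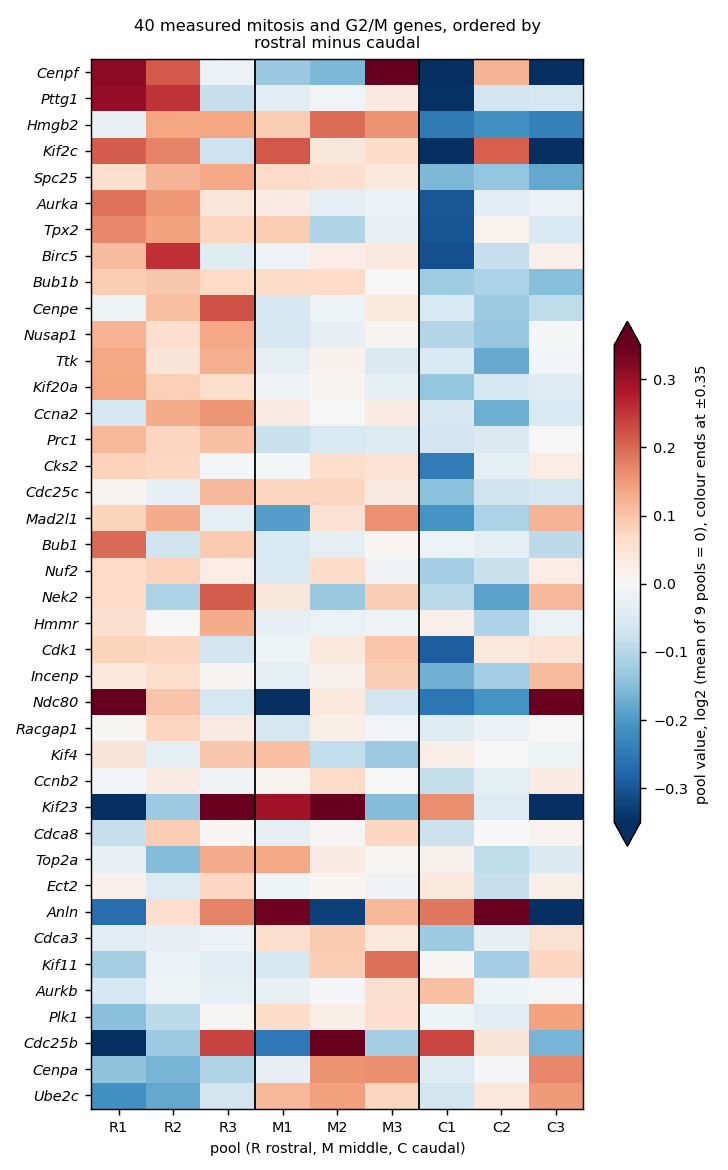
Pool values (colour, log2, red above and blue below the mean of the 9 pools, colours ending at 0.35) of the 40 measured members in rows, ordered by rostral minus caudal difference, with pools in columns. Rows in the upper part are mostly red in R1 to R3 and blue in C1 and C2, although C2 is red in Cenpf and Kif2c. C3 is paler in many of these rows but blue in Cenpf, Hmgb2, Kif2c, Spc25 and Bub1b. The last rows, Cenpa and Ube2c, are blue in the rostral pools.

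Other genes of cell division were counted in the same way. From a list of 119 further mitosis genes 96 were measured. In rostral against caudal 74 lay above 0 and 22 below, with a median of 0.10 (54 and 42, with a median of 0.02, without centring), 0 passed after adjustment (limma), and 20 (20.8%) were higher and 0 lower at an unadjusted p under 0.05, against 4.17% and 3.74% of all features. Those with the lowest p were Sgo1, the protector of centromeric cohesion, at 0.28 ± 0.05 (limma, adjusted p = 0.152), Pimreg at 0.47 ± 0.10 and Psrc1 at 0.29 ± 0.06. In rostral against middle 7 (7.29%) were higher and 1 (1.04%) was lower at that p, against 2.16% and 3.09% of features, led by Sgo1 at 0.24 ± 0.05, Cdc26, a subunit of the anaphase-promoting complex, at 0.50 ± 0.16, and the condensin subunit Ncaph2 at -0.17 ± 0.06. In middle against caudal 9 (9.38%) were higher and 0 lower, against 3.08% and 1.78%, led by the chromokinesin Kif22 at 0.42 ± 0.07, Pimreg at 0.57 ± 0.10 and Parpbp at 0.31 ± 0.07.

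Genes of DNA replication, which mark the S phase that comes before, were measured for 50 of 55. In rostral against caudal 35 lay above 0 and 15 below with a median of 0.10 (30 and 20, with a median of 0.04, without centring). At an unadjusted p under 0.05, 15 (30.0%) were higher and 3 (6.0%) lower, against 4.17% and 3.74% of all features, and 0 passed after adjustment (limma). Rrm2, a subunit of ribonucleotide reductase, gave 0.56 ± 0.07 (limma, adjusted p = 0.0619), the helicase subunit Mcm3 0.45 ± 0.06 (limma, adjusted p = 0.0815) and the histone chaperone subunit Chaf1b 0.93 ± 0.19 (limma, adjusted p = 0.186). The same 3 led in middle against caudal, at 0.36 ± 0.07, 0.41 ± 0.06 and 1.03 ± 0.19, where 6 (12%) were higher and 0 lower, against 3.08% and 1.78% of features. In rostral against middle 1 (2.0%) was higher and 5 (10%) were lower, against 2.16% and 3.09% of features, led by Mcm6 at -0.16 ± 0.05, Dut at -0.21 ± 0.06 and Pold2 at -0.16 ± 0.05. In middle against caudal the differences above 0 numbered 66 of 96 further mitosis genes and 39 of 50 replication genes, but 15 and 8 without centring.

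Lists of other cell types were set beside the members, on the centred scale. In rostral against caudal the median difference was 0.00 for 16 radial glia genes (9 above 0 and 7 below), 0.07 for 13 genes of intermediate progenitors (7 and 6) and -0.03 for 19 genes of cortical neurons (9 and 10). Medians near 0 hid differences in both directions. At an unadjusted limma p under 0.05, 2 radial glia genes (12.5%) were higher and 3 (18.75%) lower, and 1 of the lower passed after adjustment. Those counts were 3 and 3 (23.1% each) for intermediate progenitors and 4 and 3 (21.1% and 15.8%) for cortical neurons. Of all features 4.17% were higher and 3.74% lower at that p. Genes of meninges and mesenchyme lay on the other side of 0 from most members, with 13 of 14 below 0 with and without centring and a median of -0.14. At an unadjusted limma p under 0.05, 5 of the 14 (35.7%) were lower, against 3.74% of all features. The median of this list by pool was -0.01, -0.10 and -0.13 rostrally, 0.01, -0.03 and 0.00 in the middle and 0.06, 0.01 and 0.13 caudally. Its part in the members' difference was not tested. The 8 red blood cell genes all lay below 0 in rostral against middle, with a median of -0.28, and 4 of the 8 lay above 0 in rostral against caudal. The Gapdh control spots had medians of -0.09, -0.04 and -0.15 rostrally, 0.07, 0.09 and 0.08 in the middle and -0.14, 0.03 and 0.15 caudally. With their pool value as a covariate the median member difference in rostral against caudal was 0.16, with 30 members above 0 and 10 below.

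**Figure D5:**
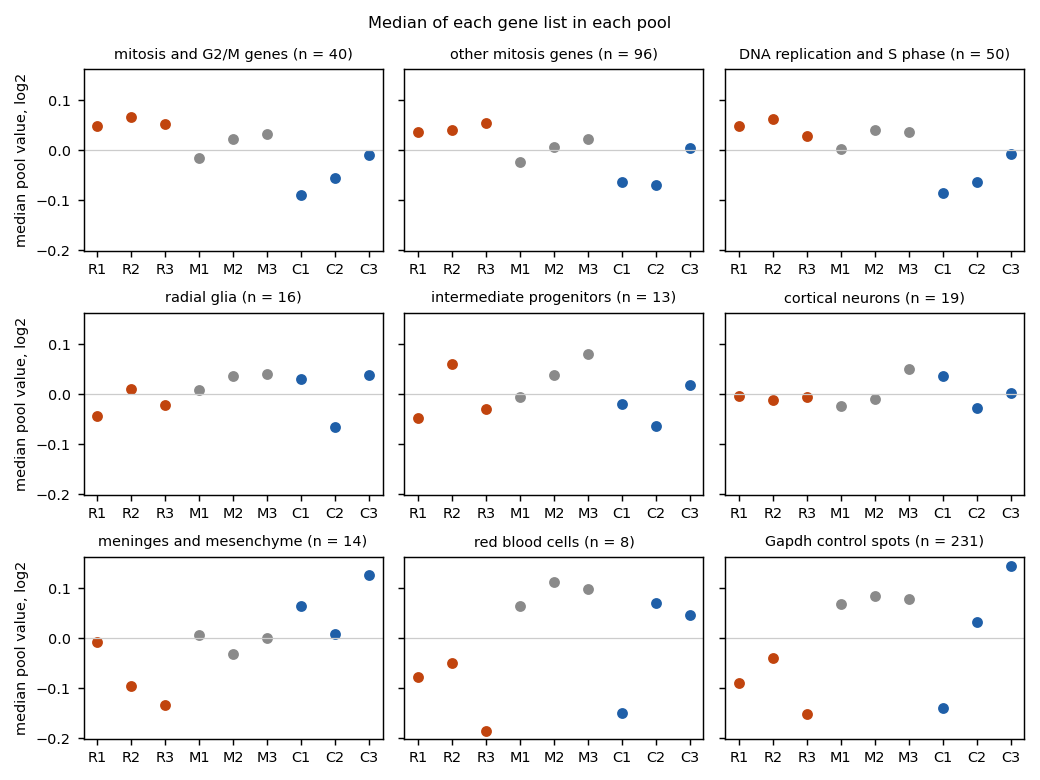
Median pool value (y axis, log2) of each gene list in each of the 9 pools (x axis), on the centred scale. Medians of the mitosis and G2/M genes lie at 0.05 to 0.07 in the rostral pools and at -0.09 to -0.01 in the caudal pools, further mitosis genes and DNA replication genes are lowest in C1 and C2, and the meninges list runs the other way.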

How the data were processed

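The deposited table held 1 log2 ratio per probe and array, made by the authors. Scanner, background correction and normalization: not given in the sources used here. Values at the cap of 16.61, which is log2 of 100000, were set to missing (1477 values), and each array was centred on its median. A feature needed values on at least 12 arrays and at least 2 arrays per pool. Least squares over the arrays gave 1 value per pool, with a dye coefficient. limma 3.58.1 (R 4.3.3, lmFit and eBayes, 6 residual degrees of freedom) compared regions on the 9 pool values, and its two-sided p-values received Benjamini-Hochberg adjustment over 18525 features. The fit was tested on simulated data. Pool values are given for the 5 members of lowest p in each comparison and for Cdk1, Top2a, Plk1 and Aurkb. Some pool values of Aurka, Tpx2 and Pttg1 were added for their low C1. From the 2 further lists of cell division genes, the 3 genes of lowest p in each comparison are named. Members, lists and this rule were chosen with earlier results of these data known. Alternatives covered centring, scaling, capped ratios, the filter, the dye coefficient, robust eBayes, the mean over probes, Gapdh spots as a covariate, blocks, and leaving out each pool and each array. No member count, median or correlation was tested.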

Additional observations from a re-analysis of the deposited data

Results flagged for a closer look

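Among 19 sets of arrays behind the members described pool by pool, 2 had an array far from the others relative to the range of the set, where chance gives about 1 in 20. For Cenpf, array 6, which joined M3 and C1, gave a middle minus caudal value of 3.45, while the next highest of the 6 arrays gave 0.59, the lowest -0.21 and the median was 0.48. For Prc1, array 2, which joined R2 and M3, gave a rostral minus middle value of 0.033, while the next lowest gave 0.146 and the highest 0.205, so all 6 arrays of Prc1 lay above 0. The check covered only these 19 sets, and sets of further members also passed its limit. In middle against caudal, array 15, which joined C3 and M1, lay far above the others for Anln, Kif23 and Kif4. It lay far below them for Kif11, Mad2l1 and Ndc80. Array 15 held the fewest values, 18315, after 193 capped ones were set to missing. Without it 33 members lay above 0 in middle against caudal and 7 below, as without array 6 or 14.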

How the results depend on the processing

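No member passed at an adjusted p under 0.05 in any comparison or in the F test under any alternative. Of the named members' values under alternatives, 734 kept their direction and 7 changed sign. Most of these values were chosen for a low p and the alternatives share most arrays, so this tally says little by itself. Of the counts and medians, 562 stayed the same and 97 moved. A count moved if it changed by over 1.5 times or to or from 0. A median moved if it shifted by at least the SD of the members' pool medians within regions. The limits are 9 pools, 4 embryos and ratios without levels. Without centring, 0 features passed in rostral against caudal and 0 in the F test, and all features shifted to medians of -0.07, 0.10 and -0.17. Members at an unadjusted p under 0.05 were then 3 higher and 2 lower in rostral against caudal (median 0.0401), 6 higher and 0 lower in rostral against middle (median 0.13), and 0 higher in middle against caudal (median -0.10, with 35 of 40 members below 0 whatever their p). Of all features 1.10%, 4.21% and 0.286% were then higher at that p in the 3 comparisons in this order, and 5.12%, 0.335% and 11.8% lower. Bub1b (-0.0033) and Cdc25c (-0.0224) in middle against caudal and Top2a (-0.0481) in rostral against caudal changed sign. With arrays scaled to the same spread, or capped ratios kept, 0 features passed the F test. With values required on all 18 arrays, 46 features passed in rostral against caudal and 20 in the F test. At an unadjusted limma p under 0.05, 2 members were then lower in rostral against caudal, against 5.53% of features. With at least 9 arrays and 1 per pool, 7 features and 0 in the F test passed. The mean of its probes put Top2a at -0.0342. With Gapdh spots as a covariate, 0 features passed in either test and Top2a was at -0.0368. At an unadjusted limma p under 0.05, 0 members were then lower in rostral against caudal (median 0.16), against 4.25% of features. In rostral against middle 9 members were higher and 0 lower, against 3.57% and 3.49% of features. With the pool number as a replicate block, 0 features passed in either test and 1 member was higher in rostral against middle, against 1.44% of features. Both other blocks, sets of pools that share arrays, gave the same 3 counts, with 2.15% and 3.47% of features higher there. Deviations of same-numbered pools correlated at -0.43 to -0.06. No array joined same-numbered pools, and this layout itself bears on these correlations, so they cannot tell whether the numbers pair the pools. No dye coefficient and robust eBayes moved no count or median past the limits given above. Each pool had 2 arrays in each dye, so dropping the dye coefficient could not change the differences of members with values on all 18 arrays. Leaving out a pool gave 0 to 4 features passing in rostral against caudal and 0 in the F test, and leaving out an array gave 2 to 17 and 0 to 3. Over both kinds, members higher and lower in rostral against caudal numbered 7 to 13 and 0 to 2 (median 0.10 to 0.16), in rostral against middle 1 to 3 and 1 to 3 (median 0.01 to 0.05), and in middle against caudal 2 to 5 higher (median 0.0417 to 0.12). Cdk1 in rostral against caudal ranged from -0.0207 without C1 to 0.16, and Top2a from -0.0524 without R3 to 0.10.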
